A study of Mus musculus with 8 samples.

Results

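The mitochondrial genome is read by its own small set of nuclear-encoded proteins, and 10 of their genes were followed here in murine splenic T cells with and without SDHA, the flavoprotein subunit of succinate dehydrogenase (mitochondrial complex II). The 10 genes were chosen by name and not by their values, though with earlier results of these data known. All 10 were among the 20170 genes of the count matrix: Nrf1, Gabpa, Polrmt, Tfam, Tfb2m, Tfb1m, Polg, Twnk, Lrpprc, and Slirp. Their unique molecular identifier (UMI) counts were summed per library, per CD4 or CD8 class, and per annotated subset, and were set beside the share of UMIs on the 13 protein-coding genes of the mitochondrial genome (mt- genes) in the same libraries.

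Mitochondrial DNA is transcribed from both strands as long polycistronic RNAs by the RNA polymerase POLRMT, together with TFAM, which also packages the DNA, and TFB2M, which helps to open the promoter. The RNAs are then cut into single transcripts, and LRPPRC and SLIRP form a complex that binds and stabilizes the mRNAs. The genes for these factors are themselves under nuclear regulators, among them NRF1 and GABPA (the DNA-binding subunit of NRF2/GABP, unrelated to NFE2L2), and T cells expand their mitochondria when they are activated.

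The study held 8 single-cell libraries, 2 from each of 4 groups, WT and SDHA-KO cells without and with stimulation. T cells were isolated magnetically from the spleens of adult WT mice and of Sdha fl/fl CD4-Cre mice, in which the Cd4 promoter drives Cre from the double-positive thymocyte stage on, so that all mature CD4+ and CD8+ T cells are targeted. They were cultured alone or for 48 h with antibodies to CD3 (5 μg/mL) and to CD28 (2.5 μg/mL), after which dead cells were removed. The sample records do not say whether the 2 replicates of a group came from separate mice, so the p values measure only the spread between these libraries, which may be technical. In bulk sums, fewer cells of a type and less RNA per cell cannot be told apart.

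The libraries held 12846 cells and between 10947009 and 51398728 UMIs, and 23 of 12823 barcode sequences occurred in more than 1 library. Sdha, the targeted gene, stood at 98.0 and 99.1 counts per 1000000 UMIs (CPM, scaled by TMM as for the members) in WT and 46.6 and 46.1 CPM in SDHA-KO before stimulation, and at 74.7 and 73.9 CPM in WT and 37.6 and 34.1 CPM in SDHA-KO after it, so that Sdha mRNA was lowered but not absent in every library labelled SDHA-KO. In stimulated SDHA-KO CD8 cells it remained at 53.3 and 50.4 CPM, against 26.5 and 26.4 CPM in CD4 cells. Cd3e was detected in every library, and γδ T cell markers, of which 4 of 6 were in the matrix, summed, without that scaling as for all marker values here, to 8.2 to 16.4 CPM in WT and 59.2 to 88.9 CPM in SDHA-KO. In the CD8 class Trdc, the constant gene of the T cell receptor δ chain, reached 123.6 to 164 CPM in SDHA-KO against 7.7 to 20.9 CPM in WT, and results for CD8 cells are given with a stricter class (CD8 cells with a Cd8a or Cd8b1 UMI and no Cd4 or Trdc UMI) where it changed the calls. After stimulation that class kept 736 of 844 and 709 of 834 WT cells. Of SDHA-KO cells it kept 169 of 511 and 147 of 396. The part of this loss of cells in the changed calls was not tested. The B cell marker list was highest in stimulated SDHA-KO replicate 1, at 182.7 CPM against 37.4 to 79.6 CPM in the other stimulated libraries, and erythroid markers summed to at most 2.4 CPM. Myeloid markers stood at 12 and 7.3 CPM in stimulated SDHA-KO and 0.84 and 1.01 CPM in stimulated WT, and NK cell markers at 23.5 and 24.1 CPM and at 11.5 and 12 CPM, and their part in the results was not tested. CD4 cells were 50.4% and 53.7% of the cells of stimulated WT and 69.0% and 76.4% of those of stimulated SDHA-KO (66.9% and 63.1%, and 77.4% and 78.7%, before stimulation), so the mix of classes moved with genotype in every comparison of genotypes over all T cells.

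The members lie on 8 mouse chromosomes (mm10, GENCODE M21 gene models). Nrf1 occupies chr6:30047988-30153458 on the plus strand, Gabpa chr16:84834925-84863779 plus, Polrmt chr10:79736123-79746581 minus, Tfam chr10:71225464-71238280 minus, and Tfb2m chr1:179528055-179546267 minus. Tfb1m lies at chr17:3519256-3557781 minus, Polg at chr7:79446231-79466362 minus, Twnk at chr19:45005663-45012762 plus, Lrpprc at chr17:84705247-84790789 minus, and Slirp at chr12:87443896-87452206 plus. No member overlaps another gene on its own strand. On the opposite strand 8 of the 10 do, among them Slirp (Alkbh1 and Snw1), Twnk (Mrpl43), Polg (Fanci), and Gabpa (Atp5j), and the strand setting of the counting was not given in the sources used here.

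Because Nrf1 and Gabpa are both regulators and members, the promoters of the 10 genes were searched for the letters of their core motifs, on both strands, in RefSeq windows from 250 bases before to 50 bases after each start (GRCm38.p6). The NRF1 core GCATGCGC, which reads GCGCATGC on the other strand, was in 2 of the 10 members (Tfb2m and Polrmt) and in 824 of 27025 genes (3.05%), each gene counted once over its windows. The ETS core CCGGAAG, which reads CTTCCGG on the other strand and is the kind bound by GABPA, was in 6 members (Tfam, Polrmt, Polg, Twnk, Slirp, and Gabpa itself) and in 2683 genes (9.93%). Neither was found in the windows of Tfb1m, Lrpprc, and Nrf1, which says only that these letters are not there. The matches of the transcription factors, and 1 each of Polg and Slirp, are shown 5′ to 3′ on the strand of the gene, with the match in capitals. They begin 47 bases before the start in Tfam, 133 and 43 before it in Polrmt, 38 before it in Polg, and 48 before it in Slirp, and 13 bases after it in Tfb2m. A match is a description of the letters and not a measured binding site, and the 2 motifs were picked after the sequences were seen.
Tfam ETS match, chr10:71238060-71238116, minus strand: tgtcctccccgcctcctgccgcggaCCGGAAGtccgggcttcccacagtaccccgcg
Polrmt NRF1 match, chr10:79746682-79746739, minus strand: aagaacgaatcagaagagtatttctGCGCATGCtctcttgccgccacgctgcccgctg
Polrmt ETS match, chr10:79746593-79746649, minus strand: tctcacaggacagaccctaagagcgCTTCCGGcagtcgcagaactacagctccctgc
Tfb2m NRF1 match, chr1:179546245-179546274, minus strand: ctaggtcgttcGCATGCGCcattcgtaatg
Polg ETS match, chr7:79466280-79466336, minus strand: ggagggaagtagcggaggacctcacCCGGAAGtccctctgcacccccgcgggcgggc
Slirp ETS match, chr12:87443823-87443879, plus strand: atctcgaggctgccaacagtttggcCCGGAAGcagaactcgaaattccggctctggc

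The product of this machinery, mt- RNA, differed strongly between the groups. The mt- genes held 4.11% and 4.03% of UMIs in unstimulated WT and 3.56% and 3.54% in unstimulated SDHA-KO. After stimulation they held 8.81% and 7.71% in WT but 3.27% and 3.04% in SDHA-KO. The mean share was 2.03 times as high in stimulated as in unstimulated WT, and 2.62 times as high in stimulated WT as in stimulated SDHA-KO, with no overlap between the groups. The gap was 3.06 times in CD4 cells (7.59% and 7.01% in WT, 2.41% and 2.36% in SDHA-KO) and 2.06 times in CD8 cells (10.3% and 8.61%, 4.56% and 4.62%), but 3.22 and 3.06 times in the stricter CD4 and CD8 classes, where CD8 cells held 9.99% and 8.46% in WT and 2.66% and 3.37% in SDHA-KO. Of 1000 mt- UMIs, mt-Nd6, the only protein-coding gene of the light-strand transcript, took 0.899 ± 0.0204 (SD, n = 2) in WT and 2.43 ± 0.0431 in SDHA-KO before stimulation, and 2.62 ± 0.101 in WT and 2.22 ± 0.104 in SDHA-KO after it. The classes ran in opposite directions after stimulation, at 2.65 ± 0.0659 in WT and 2.95 ± 0.131 in SDHA-KO CD4 cells and at 2.59 ± 0.131 and 1.5 ± 0.287 in CD8 cells. In the stricter CD8 class the gap was smaller, at 2.52 and 2.68 in WT and 2.27 and 1.72 in SDHA-KO. The stricter CD4 class stood at 2.63 and 2.74 in WT and 3.18 and 2.97 in SDHA-KO. The stimulated WT cells with under 10% mt- UMIs were 31.8% and 35.5% of their libraries, against 80.1% and 83.9% in stimulated SDHA-KO and 99.9% to 100% in unstimulated libraries, so this fraction moved with every comparison of stimulated cells below.

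**Figure D1:**
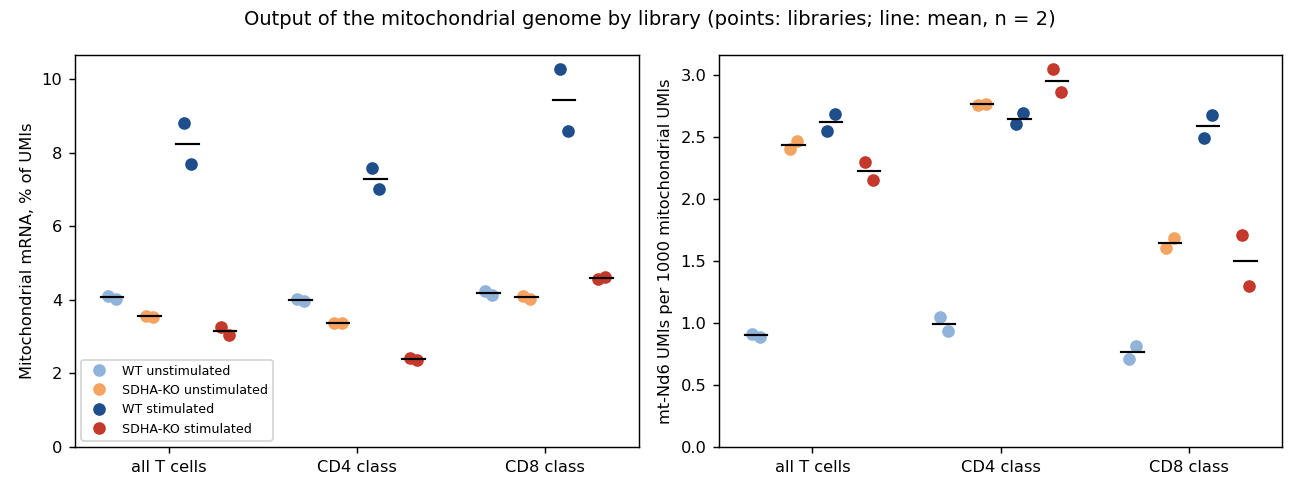
Left, the share of UMIs on the 13 mt- genes (percent, y axis), and right, mt-Nd6 UMIs per 1000 mt- UMIs (y axis), in each library of the 4 groups (colours) over all T cells and in the CD4 and CD8 class; each point is 1 library and each black line a mean of 2. Over all T cells stimulated WT libraries sit at 7.71% and 8.81% and stimulated SDHA-KO libraries at 3.04% and 3.27%, and the mt-Nd6 value is lowest in unstimulated WT.

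Member levels are given as CPM scaled by TMM (trimmed mean of M values) over all T cells of a library, they are not scaled to gene length, and they are compared between groups within a gene and not between genes. Counts behind them ran from 42 UMIs (Tfb1m, unstimulated WT replicate 1) to 5242 UMIs (Slirp, stimulated SDHA-KO replicate 2). Differences are log2 ratios of the levels of 2 groups, tested with edgeR's quasi-likelihood test. It was fitted over 8 libraries unless subsets, families, classes, or cells within a library are compared. The SE is the size of the log2 ratio divided by the square root of the test's F. P was adjusted over all genes tested by Benjamini-Hochberg, and a gene is called at an adjusted p under 0.05. Lack of overlap between the libraries of 2 groups is a description and no further test, and its share over all genes is not given here. Counts of members in alternatives or at an unadjusted p, where no background is named, are not read as results about the members.

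**Figure D2:**
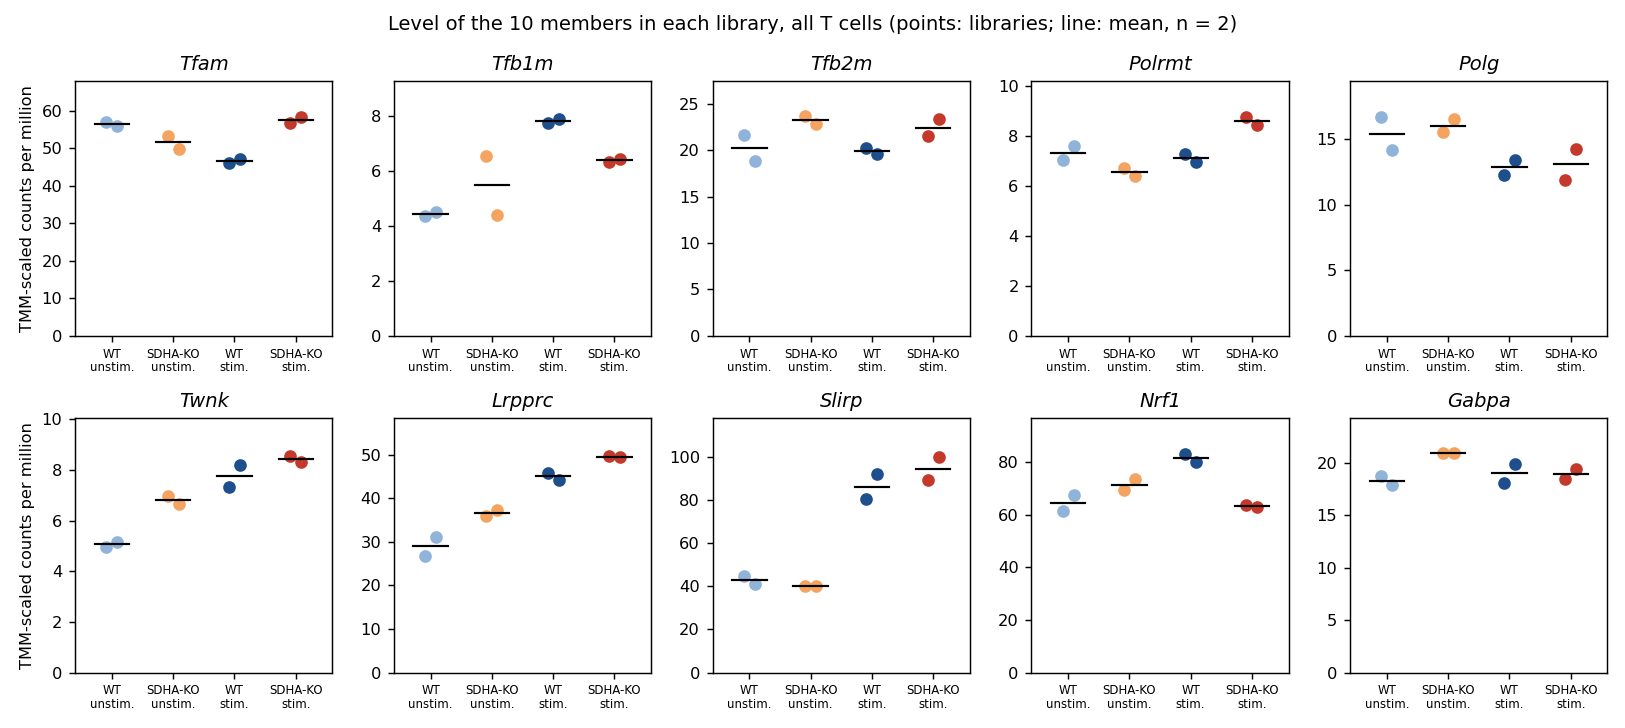
TMM-scaled CPM (y axis, starting at 0 in each panel) of the 10 genes over all T cells in the 8 libraries; each point is 1 library and each horizontal line the mean of 2. Slirp and Lrpprc were higher in stimulated than in unstimulated libraries of both genotypes, and Nrf1 was highest in stimulated WT (83.1 and 79.8 CPM).

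In WT cells stimulation called 6 of the 10 members, against 68.9% of all genes tested: Slirp, Lrpprc, Tfb1m, Twnk, and Nrf1 rose and Tfam fell. Slirp, the small RNA-binding partner of LRPPRC, went from 44.9 and 41.1 CPM to 80.7 and 92.0 CPM, a log2 ratio of 1.01 (SE 0.09, adjusted p = 5.546e-06). Lrpprc itself went from 26.8 and 31.2 CPM to 45.7 and 44.3 CPM, or 0.63 (SE 0.08, adjusted p = 6.314e-05). In both genes every stimulated library lay above every unstimulated one, and both kept the call in all 18 alternatives.

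Tfb1m, which methylates the small mitochondrial rRNA and so serves ribosome assembly, stood at 4.35 and 4.52 CPM in unstimulated and 7.77 and 7.89 CPM in stimulated WT (log2 ratio 0.82, SE 0.18, adjusted p = 0.002484). Twnk, the replicative DNA helicase Twinkle, stood at 4.97 and 5.15 CPM before and 7.31 and 8.19 CPM after stimulation (0.61, SE 0.13, adjusted p = 0.002171). These pairs of libraries did not overlap either, and the calls also held in all 18 alternatives.

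Tfam ran the other way, from 56.9 and 55.8 CPM to 46.0 and 47.1 CPM (log2 ratio −0.28, SE 0.07, adjusted p = 0.003752), while Nrf1 went from 61.4 and 67.4 CPM to 83.1 and 79.8 CPM (0.34, SE 0.07, adjusted p = 0.001713). The fall of Tfam is relative to the rest of the transcriptome: stimulated cells held far more RNA, and Tfam UMIs per cell were 0.394 and 0.410 in unstimulated WT and 1.41 and 1.48 in stimulated WT. It was lost with scaling by library totals alone (0.07), which moved the median of all genes by 0.35, and without unstimulated WT replicate 1 (−0.22, adjusted p = 0.05925), and it turned to 0.16 (adjusted p = 0.04537) among cells under 10% mt- UMIs. Nrf1 was not called among those cells (0.15, adjusted p = 0.0839). The 4 members not called were Tfb2m (log2 ratio −0.02), Polrmt (−0.04), Polg (−0.26), the catalytic subunit of the mitochondrial DNA polymerase, and Gabpa (0.05). Of all genes called, 53.7% were higher after stimulation, and 69.4% with scaling by library totals.

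By class, 6 members were called in WT CD4 cells (background 66.3%): Slirp (1.09), Tfb1m (0.90), Twnk (0.70), Lrpprc (0.51), and Nrf1 (0.27) rose, and Tfam (−0.19) fell. In WT CD8 cells 5 were called (background 65.7%): Slirp (0.94), Lrpprc (0.72), Twnk (0.51), and Nrf1 (0.49) rose and Tfam (−0.35) fell, while Tfb1m stood at 0.71 with an adjusted p of 0.0555. Without unstimulated WT replicate 1, 3 members were called in CD8 cells.

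In SDHA-KO cells stimulation also called 6 members (background 71.1%), and the RNA-binding pair led again. Slirp went from 40.3 and 40.0 CPM to 89.4 and 99.9 CPM (log2 ratio 1.24, SE 0.09, adjusted p = 9.425e-07) and Lrpprc from 36.0 and 37.3 CPM to 49.7 and 49.4 CPM (0.43, SE 0.08, adjusted p = 0.0005304). Both calls held in all 18 alternatives. Polrmt went from 6.72 and 6.38 CPM to 8.74 and 8.44 CPM (0.39, SE 0.11, adjusted p = 0.0115), a call lost under DESeq2 (adjusted p = 0.08298), in the stricter class (0.21), and without unstimulated SDHA-KO replicate 2 (0.37, adjusted p = 0.05258).

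The other 3 calls in SDHA-KO were close to the threshold. Twnk stood at 6.96 and 6.66 CPM before and 8.56 and 8.32 CPM after stimulation (0.31, SE 0.12, adjusted p = 0.03927), Tfam at 53.3 and 49.9 CPM before and 56.8 and 58.4 CPM after (0.16, SE 0.06, adjusted p = 0.04672), and Nrf1 at 69.2 and 73.3 CPM before and 63.4 and 62.9 CPM after (−0.18, SE 0.07, adjusted p = 0.04196). Twnk and Tfam were each lost in 11 of 18 alternatives and Nrf1 kept the call and the direction in 6. With scaling by library totals Nrf1 stood at 0.04, and with each cell weighted equally at 0.27 (adjusted p = 0.005601). Without unstimulated SDHA-KO replicate 2 the number of called members was 2, and without stimulated SDHA-KO replicate 1 it was 3. Tfb1m (0.23), Tfb2m (−0.05), Polg (−0.29), and Gabpa (−0.15) were not called.

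In SDHA-KO CD4 cells 4 members were called (background 69.8%), Slirp (1.16) and Lrpprc (0.23) higher and Nrf1 (−0.38) and Polg (−0.35) lower after stimulation, and 2 were called without either unstimulated SDHA-KO library. In SDHA-KO CD8 cells 4 were called (background 68.2%), all higher: Slirp (1.30), Twnk (0.64), Lrpprc (0.59), and Polrmt (0.54), with 2 called without unstimulated SDHA-KO replicate 1. In the stricter CD8 class 1 was called (background 65.3%), Slirp (1.45), with Twnk at 0.60, Lrpprc at 0.22, and Polrmt at 0.24.

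Before stimulation edgeR called no member between the genotypes over all T cells (background 1.75%), in CD4 cells (1.10%), or in CD8 cells (0.947%). DESeq2 called none either. An unadjusted p under 0.05 was reached by 2, 2, and 1 members, counts given without the share of all genes at that threshold. Lrpprc was nearest, at 26.8 and 31.2 CPM in WT and 36.0 and 37.3 CPM in SDHA-KO (log2 ratio 0.34, SE 0.09, adjusted p = 0.0901), with 0.41 in CD4 cells (adjusted p = 0.0718) and 0.36 in CD8 cells (adjusted p = 0.258). Twnk, at 4.97 and 5.15 CPM in WT and 6.96 and 6.66 CPM in SDHA-KO, gave 0.43 (SE 0.15, adjusted p = 0.172). In both genes the SDHA-KO libraries lay above the WT libraries, but the differences did not pass the test. The other 8 members ranged from −0.16 (Polrmt) to 0.30 (Tfb1m).

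Between the stimulated genotypes, 3 of 10 members were called over all T cells, against 47.2% of all genes tested. The median log2 ratio of the members was 0.13, beside 0.0032 for all genes. Nrf1 was the most stable of the calls. Its level was 83.1 and 79.8 CPM in WT and 63.4 and 62.9 CPM in SDHA-KO, a log2 ratio of −0.37 (SE 0.07, adjusted p = 0.001411), and the call held in all 18 alternatives, over which the value ranged from −0.51 to −0.26. Both SDHA-KO libraries lay below both WT libraries.

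Tfam, the packaging and transcription factor, stood at 46.0 and 47.1 CPM in WT and 56.8 and 58.4 CPM in SDHA-KO (log2 ratio 0.31, SE 0.06, adjusted p = 0.002462). Tfam mRNA was higher in the libraries whose mt- share was lower. The call held in 17 of 18 alternatives, among them each left-out library, and was lost among cells under 10% mt- UMIs, where Tfam stood at −0.048 (adjusted p = 0.5626). Polrmt was at 7.27 and 6.95 CPM in WT and 8.74 and 8.44 CPM in SDHA-KO (0.27, SE 0.10, adjusted p = 0.04639). The Polrmt libraries did not overlap, but the call was lost in 15 of 18 alternatives, including DESeq2 (adjusted p = 0.2885) and every left-out library, with a direction that did not change (0.038 to 0.45).

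The other 7 members did not pass the test in stimulated cells. Slirp stood at 80.7 and 92.0 CPM in WT and 89.4 and 99.9 CPM in SDHA-KO (0.13, SE 0.08), with overlapping groups. Lrpprc stood at 45.7 and 44.3 CPM and at 49.7 and 49.4 CPM (0.14, SE 0.07), without overlap. Tfb1m was lower in both SDHA-KO libraries, at 6.34 and 6.46 CPM against 7.77 and 7.89 CPM (−0.29, SE 0.14, adjusted p = 0.1202). Tfb2m stood at 0.17, Twnk at 0.12, Polg at 0.03, and Gabpa at −0.0069.

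**Figure D3:**
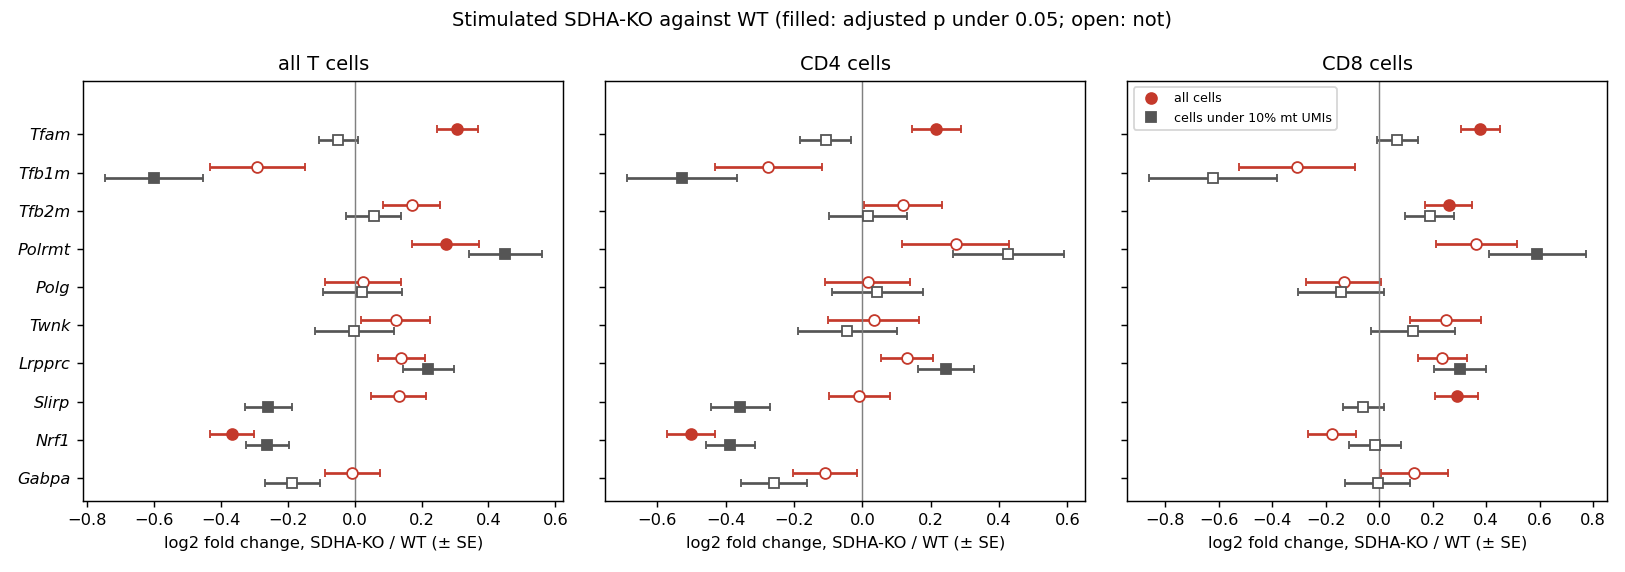
Log2 ratio of stimulated SDHA-KO over stimulated WT (x axis) for the 10 genes, in panels for all T cells and for the CD4 and the CD8 class; red circles are all cells, grey squares are cells under 10% mt- UMIs, bars are 1 SE, and filled and open symbols mark genes called and not called. Nrf1 lies at −0.37 over all T cells and −0.50 in CD4 cells, and Tfam over all T cells moves from 0.31 in all cells to −0.048 among cells under 10% mt- UMIs.

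In CD4 cells 2 members were called (background 43.2%). Nrf1 stood at 83.2 and 79.2 CPM in WT and 58.4 and 56.3 CPM in SDHA-KO (log2 ratio −0.50, SE 0.07, adjusted p = 0.0002085), a call that held in all 18 alternatives. Tfam stood at 48.8 and 49.5 CPM in WT and 55.9 and 58.3 CPM in SDHA-KO (0.22, SE 0.07, adjusted p = 0.02993). Neither gene's libraries overlapped, but the Tfam call was lost without stimulated WT replicate 1 (adjusted p = 0.1256), stimulated WT replicate 2 (0.09471), or stimulated SDHA-KO replicate 2 (0.1003), under DESeq2 (0.09912), and with replicate number as a block (0.05274), and the value turned to −0.11 (adjusted p = 0.298) among cells under 10% mt- UMIs. The median of the members was 0.02. Of the others, Polrmt stood at 0.27, Tfb1m at −0.28, Lrpprc at 0.13, Tfb2m at 0.12, Gabpa at −0.11, Twnk at 0.03, Polg at 0.02, and Slirp at −0.0091.

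In CD8 cells 3 members were called (background 50.4%). Tfam stood at 43.2 and 44.2 CPM in WT and 57.2 and 56.4 CPM in SDHA-KO (log2 ratio 0.38, SE 0.07, adjusted p = 0.00135), and lost the call in 1 of 18 alternatives, the cells under 10% mt- UMIs (0.07, adjusted p = 0.5307). Slirp stood at 77.3 and 85.8 CPM and at 96.6 and 103 CPM (0.29, SE 0.08, adjusted p = 0.01175), and Tfb2m at 21.1 and 22.1 CPM and at 25.3 and 26.5 CPM (0.26, SE 0.09, adjusted p = 0.02891). Each call rests on 2 libraries a group. Slirp lost its call without stimulated WT replicate 1 (0.20, adjusted p = 0.1487) and without stimulated SDHA-KO replicate 2 (0.23, adjusted p = 0.08399), and turned to −0.06 among cells under 10% mt- UMIs. Tfb2m lost its call in 9 alternatives, among them DESeq2 (adjusted p = 0.1602) and each left-out stimulated library (adjusted p from 0.05767 to 0.1711). Nrf1, at 83.5 and 80.6 CPM in WT and 69.8 and 75.5 CPM in SDHA-KO, was not called (−0.18, adjusted p = 0.1263). Of the others, Polrmt stood at 0.36 (adjusted p = 0.06602), Lrpprc at 0.24 (adjusted p = 0.05115), Tfb1m at −0.31, Twnk at 0.25, Polg at −0.13, and Gabpa at 0.13. In the stricter class Nrf1 stood at −0.46 (adjusted p = 0.00218), Tfam at 0.30 (adjusted p = 0.0166), Slirp at 0.34 (adjusted p = 0.0107), and Tfb2m at 0.23 (adjusted p = 0.101). Lrpprc stood at −0.013 there (adjusted p = 0.9301). The median of the members was 0.24.

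The difference between the classes was tested directly in the stimulated libraries. The SDHA-KO effect in CD8 cells minus that in CD4 cells was called for 2 members, against 22.4% of all genes: Slirp (0.29, SE 0.07, adjusted p = 0.02439) and Nrf1 (0.31, SE 0.08, adjusted p = 0.0262). Neither call held under DESeq2 (adjusted p = 0.09068 and 0.1043) or with scaling by library totals, and the number of called members was 0 without stimulated WT replicate 1 and 1 without any other stimulated library. Nrf1 stood at 0.07 (adjusted p = 0.7422) in the stricter classes. For Tfam the difference was 0.15 (SE 0.08, adjusted p = 0.2052), with Sdha itself differing by 0.92 between the classes.

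How far the SDHA-KO effect changed from the unstimulated to the stimulated state was also tested, and that difference was called for 2 members over all T cells, against 27.0% of all genes. It was 0.44 for Tfam (SE 0.09, adjusted p = 0.00753) and −0.51 for Nrf1 (SE 0.10, adjusted p = 0.004805). The SDHA-KO effect before stimulation was −0.13 for Tfam and 0.15 for Nrf1, of the opposite sign in both. Nrf1 kept the call in all 17 alternatives and Tfam in 16, the exception being cells under 10% mt- UMIs (0.05, adjusted p = 0.7734). The values of the other members were 0.43 for Polrmt (adjusted p = 0.0807), 0.23 for Slirp, −0.03 for Tfb2m, −0.04 for Polg, −0.20 for Lrpprc, −0.20 for Gabpa, −0.30 for Twnk, and −0.59 for Tfb1m. In CD4 cells the difference was called for Nrf1 (−0.65, SE 0.10, adjusted p = 0.001713, background 21.4%), and in CD8 cells for Tfam (0.53, SE 0.12, adjusted p = 0.01022, background 23.8%), where no member was called without unstimulated WT replicate 1 and 2 were called without unstimulated SDHA-KO replicate 2. In the stricter CD8 class 3 members were called (background 23.8%), Slirp (0.53), Nrf1 (−0.61), and Tfb1m (−1.47), and Tfam was not (0.39, adjusted p = 0.0809).

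Restricting the stimulated comparison to cells under 10% mt- UMIs changed which members were called. Over all T cells there were then 5 calls (background 34.3%): Polrmt (log2 ratio 0.45) and Lrpprc (0.22) were higher, and Nrf1 (−0.26), Slirp (−0.26), and Tfb1m (−0.60) lower in SDHA-KO. In CD4 cells (background 32.8%) Lrpprc (0.24) was higher and Tfb1m (−0.53), Nrf1 (−0.39), and Slirp (−0.36) lower, and in CD8 cells (background 35.4%) Polrmt (0.59) and Lrpprc (0.30) were higher. These cells had a median of 61452 and 61306 UMIs in stimulated WT but 29650.5 and 29176 UMIs in stimulated SDHA-KO. The part of that gap in the differences was not tested. The stricter CD8 class, where Lrpprc stood at −0.013, was not combined with this limit.

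The annotated subsets narrowed the same comparison to cells of 1 annotation. In the stimulated state 7 subsets had enough cells, which gave 68 tests of members with 5 calls, against 20.9% of all gene tests. There were 12 at an unadjusted p under 0.05, given without the share of all gene tests at that threshold, and 1 call under DESeq2. In CD4 Tem1 cells (effector memory T cells in the authors' naming) Slirp stood at 102 and 124 CPM in WT and 68.7 and 69.8 CPM in SDHA-KO, a log2 ratio of −0.72 (SE 0.11, adjusted p = 0.001036), and was the member called under DESeq2. Nrf1 was lower in CD4 Tem1 cells (71.9 and 73.5 CPM in WT, 57.0 and 53.5 CPM in SDHA-KO, −0.40, SE 0.11) and in CD4 Tem2 cells (86.7 and 99.0 CPM, 66.9 and 73.3 CPM, −0.40, SE 0.11). Tfb1m was lower in CD4 Tem3 cells (8.92 and 9.50 CPM in WT, 4.25 and 3.75 CPM in SDHA-KO, −1.22, SE 0.26, from 13 to 65 UMIs a library), and Lrpprc was higher in CD8 Tem2 cells (43.5 and 43.9 CPM, 53.9 and 54.6 CPM, 0.31, SE 0.09). These 5 calls rest on 2 libraries a group. Subsets were not refitted in the stricter classes, where Lrpprc over all CD8 cells stood at −0.013. The number of calls was 3 without stimulated WT replicate 1 and 2 without stimulated WT replicate 2 or stimulated SDHA-KO replicate 2. In the unstimulated state 9 subsets gave 68 tests of members and no call by edgeR or DESeq2 (background 2.57%). There 6 had an unadjusted p under 0.05, again without the share of all gene tests.

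When the subsets were merged into the Tcm and Tem families of each class (an alternative added after the data were seen), levels of several members differed between the 2 families. As a description, because the clusters were drawn from these same genes, Tfam stood at 23.8 and 23.1 CPM in stimulated WT CD4 Tcm cells and at 71.1 and 72.0 CPM in WT CD4 Tem cells, and at 37.2 and 32.8 CPM and 64.5 and 67.7 CPM in the same families of SDHA-KO. Slirp followed the same order, at 31.8 and 36.9 CPM in WT CD4 Tcm and 128.7 and 146.3 CPM in WT CD4 Tem cells. Nrf1 had the reverse order, at 116.7 and 106.1 CPM in WT CD4 Tcm and 74.7 and 74.9 CPM in WT CD4 Tem cells, as had Lrpprc, at 49.5 and 47.6 CPM and at 38.7 and 36.3 CPM. The order was the same in CD8 cells, where WT Tfam stood at 26.6 and 26.4 CPM in Tcm and at 72.7 and 69.0 CPM in Tem cells. The size of these gaps, and for Tfam in SDHA-KO CD4 cells the order, depended on the scaling. As shares of nuclear UMIs without TMM, Tfam stood at 41.7 and 39.7 CPM in WT CD4 Tcm and 61.9 and 61.1 CPM in WT CD4 Tem cells, but at 66.0 and 56.6 CPM in SDHA-KO CD4 Tcm and 62.3 and 65.2 CPM in SDHA-KO CD4 Tem cells, where the families overlapped. Slirp, Nrf1, and Lrpprc kept their order on that scale, with Nrf1 at 204.7 and 182.7 CPM in WT CD4 Tcm and 65.0 and 63.6 CPM in WT CD4 Tem cells.

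The family makeup of the classes moved with genotype. Tcm cells were 62.9% and 61.4% of stimulated WT CD4 cells but 20.8% and 17.4% of stimulated SDHA-KO CD4 cells. They were 76.8% and 71.1% of WT CD8 cells but 44.0% and 41.4% of SDHA-KO CD8 cells. In the CD8 Tem family, Tem1 cells were 16 of 196 and 16 of 241 WT cells, but 136 of 286 and 111 of 232 SDHA-KO cells. The mt- share was 19.9% and 18.9% in WT CD4 Tcm cells and 10.5% and 10.9% in SDHA-KO CD4 Tcm cells, against 3.07% and 2.91% and 1.79% and 1.82% in CD4 Tem cells. Depth moved too, with medians of 10849 and 10875 UMIs a cell in WT CD4 Tcm cells and 60983 and 61520 in WT CD4 Tem cells, against 6871.5 and 7418 and 28229 and 28380 in SDHA-KO.

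Within families 6 of 40 member tests were called, against 29.6% of all gene tests. Tfam was higher in SDHA-KO CD4 Tcm cells (log2 ratio 0.53, SE 0.13, adjusted p = 0.02177). In CD4 Tem cells Tfam was not called. Its libraries there were lower in SDHA-KO with TMM, but higher as the shares of nuclear UMIs given above. Nrf1 (−0.39, SE 0.07, adjusted p = 0.009224), Slirp (−0.37, SE 0.10, adjusted p = 0.02473), and Tfb1m (−0.51, SE 0.14, adjusted p = 0.03395) were lower in SDHA-KO CD4 Tem cells, with Slirp at 99.8 and 114.8 CPM there against the WT values above. Lrpprc was higher in SDHA-KO in CD8 Tcm cells (64.4 and 66.1 CPM in WT, 79.2 and 98.3 CPM in SDHA-KO, 0.40, SE 0.12, adjusted p = 0.04972) and in CD8 Tem cells (53.9 and 54.7 CPM, 65.6 and 65.3 CPM, 0.26, SE 0.07, adjusted p = 0.03268). In the stricter CD8 class, which was not split by family, Lrpprc stood at −0.013 (adjusted p = 0.9301). The 6 calls rest on 2 libraries a group. DESeq2 called 2, and most or all of the calls were lost when either stimulated WT library was left out.

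**Figure D4:**
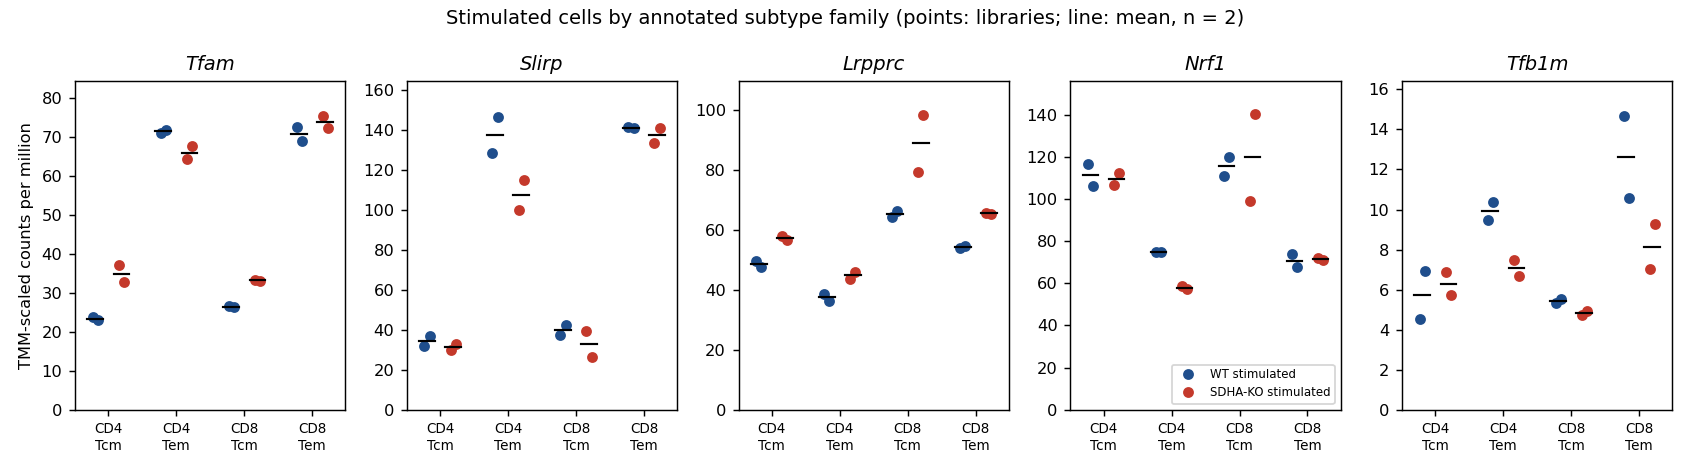
TMM-scaled CPM (y axis, starting at 0 in each panel) of Tfam, Slirp, Lrpprc, Nrf1, and Tfb1m in the Tcm and Tem families of stimulated CD4 and CD8 cells; each point is 1 library, blue for WT and red for SDHA-KO, and each black line a mean of 2. On this scale Tfam and Slirp are higher in Tem than in Tcm cells in every library, for example 71.1 and 72.0 against 23.8 and 23.1 CPM for Tfam in WT CD4 cells.

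Cells of each stimulated library were also ordered by their own mt- percentage. The 25% with the highest percentage (high-mt- cells) were set against the 25% with the lowest (low-mt- cells), on nuclear UMIs only. Because Tcm and Tem cells differed widely in mt- share and depth, this split is not independent of the families and is no separate test of them. In WT 7 members were called (background 60.0%) and in SDHA-KO 7 (background 55.5%). Tfam fell from 89.5 to 38.4 CPM and from 87.9 to 36.3 CPM between the low-mt- and the high-mt- cells of the WT libraries (log2 ratio −1.25, SE 0.10), and from 75.9 to 41.7 CPM and 79.6 to 47.9 CPM in SDHA-KO (−0.80). Slirp fell from 167 to 56.0 CPM and 177 to 60.9 CPM in WT (−1.56, SE 0.11) and from 128 to 39.9 CPM and 140 to 53.9 CPM in SDHA-KO (−1.52). With TMM both genes were lower in the cells with the higher mt- share in all 4 libraries. As shares of nuclear UMIs without TMM, Slirp kept that order in all 4. Tfam kept it in WT, but in SDHA-KO replicate 1 it went from 61.0 to 58.6 CPM. In SDHA-KO replicate 2 it stood at 63.6 CPM in low-mt- and 63.9 CPM in high-mt- cells.

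Polrmt, Lrpprc, and Nrf1 ran the opposite way. Polrmt rose from 8.13 to 13.8 CPM and 7.49 to 14.7 CPM in WT (0.87, SE 0.18) and by 0.84 in SDHA-KO. Lrpprc rose from 53.9 to 69.5 CPM and 52.1 to 66.2 CPM in WT (0.36, SE 0.10) and by 0.47 in SDHA-KO, and Nrf1 from 88.4 to 105 CPM and 85.5 to 118 CPM in WT (0.35, SE 0.10) and by 0.90 in SDHA-KO. The SDHA-KO sides differed in class, with 88.6% and 93.3% CD4 cells among low-mt- and 50% and 58.3% among high-mt- cells. Lrpprc stood at −0.018 in SDHA-KO CD4 cells alone and at 0.66 in CD8 cells alone. Polrmt was called in neither SDHA-KO class alone (CD4 0.35, adjusted p = 0.319, and CD8 0.75, adjusted p = 0.0529), while Nrf1 was called in each. In WT CD4 cells alone, Polrmt (0.59, adjusted p = 0.105) and Nrf1 (0.28, adjusted p = 0.0946) were not called. Polrmt and Nrf1 were called in WT CD8 cells alone, and Lrpprc in each WT class. Tfb1m (−1.17 in WT, −0.77 in SDHA-KO) fell in both genotypes, Gabpa (−0.67) in WT, and Tfb2m (−0.33) in SDHA-KO. With scaling by library totals Gabpa turned to 0.20 (adjusted p = 0.230) and Tfb2m to 0.44 (adjusted p = 0.00914, called in the other direction). Tfb1m then stood at −0.30 in WT (adjusted p = 0.239) and −0.0017 in SDHA-KO (adjusted p = 0.998), not called in either. Without stimulated WT replicate 2 the WT calls numbered 4.

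The high-mt- and low-mt- cells differed in depth, and 4 of the 7 called WT values turned in a narrower range of depth, where the mt- contrast was also smaller. Low-mt- cells of WT had medians of 64905 and 65939.5 UMIs and high-mt- cells 9611 and 9510 UMIs. Among cells of 5000 to 20000 UMIs, with both sides redrawn (an alternative added after the data were seen), 1 member was called in WT (background 15.6%): Nrf1, lower in the high-mt- cells (−0.37, SE 0.10, adjusted p = 0.01423), with Tfam at 0.31 (adjusted p = 0.2315), Slirp at 0.35 (adjusted p = 0.1012), Tfb1m at 0.02, and Polrmt at 0.77 (adjusted p = 0.0692). The median mt- percentage of the WT low-mt- cells was then 13.7% and 13.4%, against 2.80% and 2.53% over all depths, so depth and the width of the mt- contrast changed together. In SDHA-KO 4 members were called among such cells (background 53.5%), Tfam (−0.67), Slirp (−1.86), Lrpprc (0.89), and Nrf1 (0.95), but there the low-mt- side was 95.9% and 97.8% CD4 cells and the high-mt- side 19.3% and 26.5%. Scaling by library totals moved the median of all genes by 0.88 in WT and 0.77 in SDHA-KO and left Tfam at −0.023 in SDHA-KO (adjusted p = 0.8535). In SDHA-KO Sdha itself was higher in the high-mt- cells (1.16, SE 0.11, adjusted p = 2.399e-06), against −0.26 in WT.

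**Figure D5:**
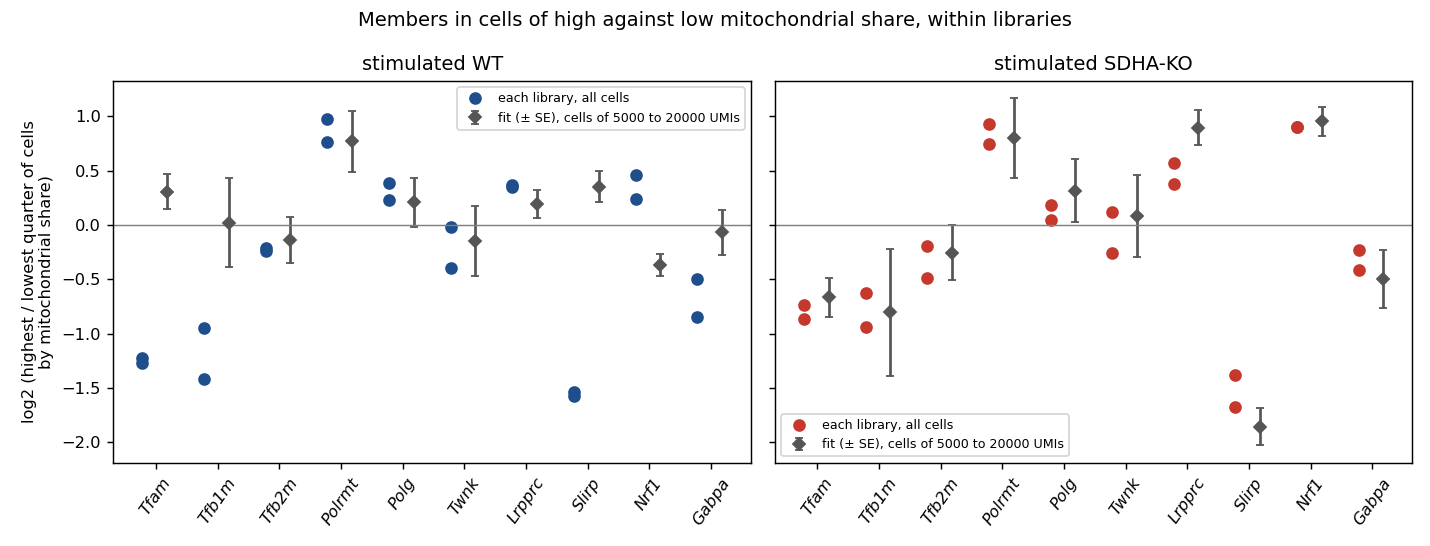
Log2 ratio of the level in high-mt- over low-mt- cells (y axis) for the 10 genes, in stimulated WT (left) and SDHA-KO (right); coloured circles are the 2 libraries with all their cells, and grey diamonds with bars are the fitted value with 1 SE among cells of 5000 to 20000 UMIs. With TMM scaling the Tfam and Slirp circles lie below 0 in both genotypes. Their diamonds lie at 0.31 and 0.35 in WT and at −0.67 and −1.86 in SDHA-KO.

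The remaining genes of the same pathways were counted from lists that leave out the 10 members. All list values come from the fits with all cells and all libraries. For these genes the alternatives, among them the stricter classes and cells under 10% mt- UMIs, are not given here. In stimulated SDHA-KO against WT over all T cells, 26.2% of all genes tested were called higher and 21.0% lower. Of 39 tested genes of mitochondrial RNA processing, modification, and decay 20 were called higher and 0 lower, with a median log2 ratio of 0.31. In CD8 cells 28 were higher and 1 lower (26.8% and 23.5% of all genes), and in CD4 cells 10 were higher and 2 lower (22.7% and 20.5% of all genes), a share of calls below that of all genes. The largest rises were Fastkd5, which takes part in the maturation of mitochondrial precursor RNAs (1.97 and 1.96 CPM in WT, 3.44 and 4.29 CPM in SDHA-KO, 0.97, SE 0.20), and Cdk5rap1, a mitochondrial tRNA-modifying enzyme (18.8 and 12.4 CPM, 34.3 and 24.6 CPM, 0.92, SE 0.27).

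Of 7 other genes of mitochondrial transcription 3 were called higher and 0 lower (median 0.27), a total near the 47.2% called among all genes. Tefm, the elongation factor of POLRMT, stood at 4.94 and 4.90 CPM in WT and 10.0 and 11.4 CPM in SDHA-KO (1.12, SE 0.12), and Mrpl12, a ribosomal protein that also binds POLRMT, at 167 and 162 CPM and at 261 and 279 CPM (0.71, SE 0.08). Both genes were higher in each SDHA-KO library than in each WT library. In stimulated against unstimulated WT the same list had 2 higher and 4 lower (median −0.58), against 37.0% and 31.9% of all genes and a median of 0.08.

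Of 18 genes of mitochondrial DNA replication and maintenance 8 were called higher and 5 lower (median 0.11), against 26.2% and 21.0% of all genes. Rnaseh1, which removes RNA primers (19.6 and 19.9 CPM in WT, 32.8 and 37.9 CPM in SDHA-KO, 0.84, SE 0.10), and Atad3a, a membrane ATPase tied to nucleoids (36.2 and 34.2 CPM, 60.7 and 61.0 CPM, 0.79, SE 0.07), rose most. Lonp1, the matrix protease that degrades TFAM, stood at 72.5 and 79.2 CPM in WT and 45.5 and 40.4 CPM in SDHA-KO (−0.82, SE 0.08), and Primpol at 27.1 and 27.9 CPM and at 20.1 and 17.3 CPM (−0.56, SE 0.11).

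Among 12 tested nuclear regulators 4 were called higher and 2 lower (median 0.06), a total near the 47.2% of all genes. Pprc1, a coactivator of the PGC-1 family, rose (24.6 and 21.3 CPM in WT, 35.6 and 34.8 CPM in SDHA-KO, 0.62, SE 0.09), as did Myc (66.4 and 82.8 CPM, 91.6 and 103.9 CPM, 0.39, SE 0.10). Nfe2l2 (−0.33, SE 0.08) and Tfeb (−0.33, SE 0.09) fell.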

How the data were processed

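Single-cell 3′ libraries of splenic T cells, 2 from each of 4 groups, were read from the deposited count matrix. The authors processed the reads with Cell Ranger on mm10 (versions not given in the sources used here) and deposited raw UMI counts per gene and cell, after their own removal of cells and clusters. The deposited cell table gives the subset, the class, and the percent of mitochondrial UMIs of each cell, and its percent values and UMI totals matched the matrix in all 12846 cells. Cells were assigned to libraries by the deposited names, and no sample was left out. Doublets were not called again.

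Sums of UMIs were formed in each library over the whole library, over each class, and over each subset of at least 50 cells a library. Genes passing filterByExpr (minimum count 10, minimum total 15) were scaled with TMM (trim 0.3) and tested with glmQLFit and glmQLFTest of edgeR 4.0.16 in R 4.3.3, with Benjamini-Hochberg adjustment over all genes tested. Whole libraries and classes had a fit of 4 groups over 8 libraries. Subsets and families were fitted on the 4 libraries of a state. The class difference and the contrast of high-mt- with low-mt- cells were fitted on 8 sums of the 4 stimulated libraries, with library as a block. Values outside the tests came from Python 3.11.15 with pandas 2.3.3. The steps were tested on simulated data.

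The 10 members, the gene lists, and the markers were chosen with earlier results of these data known. All 10 members are named. Of each list the 2 largest rises and 2 largest falls called in stimulated SDHA-KO against WT are named. Alternatives were DESeq2 1.42.0, library totals without TMM, no filter, no mt- genes, the 4 libraries of a comparison only, cells under 10% mt- UMIs, cells of at least 5000 UMIs, stricter classes (CD4 cells with a Cd4 UMI and no Cd8a, Cd8b1, or Trdc UMI, and the converse), a replicate block, and each library left out. Equal weight for each cell (limma 3.58.1 on log2 of the mean CPM plus 1), fits by family, and the 25% of cells highest and lowest in mt- UMIs within a class or a depth range were added after seeing the data. Promoters and loci came from RefSeq and GENCODE tables of the build.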

Additional observations from a re-analysis of the deposited data

Results flagged for a closer look

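Tfam, Nrf1, and Slirp differed in their SDHA-KO effect between states or between classes by a test of the difference itself (edgeR's quasi-likelihood test, Benjamini-Hochberg). Many other genes did so too. Between the stimulated and unstimulated state, the effect on Tfam differed by 0.44 over all T cells and by 0.53 in CD8 cells (log2 scale), and that on Nrf1 by −0.51 over all T cells and by −0.65 in CD4 cells. Between stimulated CD8 and CD4 cells the effect differed by 0.29 for Slirp and by 0.31 for Nrf1, with 22.4% of all genes called. Neither class difference was called under DESeq2 or with scaling by library totals, and that of Nrf1 stood at 0.07 in the stricter classes. The share of cells under 10% mt- UMIs and the share of Tcm cells moved with genotype in the stimulated libraries, and the Tfam difference stood at 0.05 among cells under 10% mt- UMIs.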

How the results depend on the processing

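Depth limits the low members, with as few as 42 UMIs of Tfb1m in a library, and 2 libraries a group limit every call. Over all alternatives 1052 member values kept their direction and their side of the threshold, 34 passed it newly, 139 no longer passed it, and 77 turned their sign, and 264 counts of called members stayed within 1.5 times while 61 did not. The cause of each turn below was not tested. Counts of called members below are given without the share of all genes called in the same alternative, which moved too. They are not read as results about the members. All values are log2 differences of stimulated SDHA-KO against WT unless stated. Among cells under 10% mt- UMIs, Tfam (−0.048), Twnk (−0.00042), and Slirp (−0.26) turned over all T cells, Tfam (−0.11) and Twnk (−0.044) in CD4 cells, Slirp (−0.060) and Gabpa (−0.0060) in CD8 cells, Tfam (0.16) and Tfb2m (0.12) in WT stimulation, and Slirp (−0.19) in the difference between states, and the members called were 5 over all T cells, 4 in CD4 cells, and 2 and 0 for the difference between states in CD4 and CD8 cells. With each cell weighted equally, Tfb2m (−0.011) and Lrpprc (−0.020) turned over all T cells, Tfb2m (−0.016), Polg (−0.019), Lrpprc (−0.0049), and Slirp (0.30) in CD4 cells, Tfb2m (0.41), Polrmt (0.57), and Polg (0.25) in WT stimulation, and Tfb2m (0.093), Polg (0.14), Nrf1 (0.27), and Gabpa (0.13) in SDHA-KO stimulation, with 1 call each in unstimulated all T and CD4 cells, 3 and 2 for the difference between states in CD4 and CD8 cells, and 8 in each genotype's CD8 stimulation. With scaling by library totals, Polg (−0.0093) turned over all T cells, Slirp (0.014) in CD4 cells, Tfam (0.069), Tfb2m (0.33), Polrmt (0.30), and Polg (0.087) in WT stimulation, Tfb2m (0.17), Nrf1 (0.041), and Gabpa (0.068) in SDHA-KO stimulation, and between high-mt- and low-mt- cells Gabpa (0.20, WT) and Tfb2m (0.44, SDHA-KO), with 1 call in unstimulated cells, 9 and 7 in WT and SDHA-KO CD8 stimulation, 0 between classes, and 10 by family.

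Under DESeq2, Slirp turned in CD4 cells (0.0019) and Tfb2m in WT stimulation (0.0036), and calls numbered 2 in each SDHA-KO stimulation, 1 in stimulated CD4 cells, 0 between classes, 1 by subset, and 2 by family. Without the filter Gabpa (0.0039) turned over all T cells, Slirp (0.036) in CD4 cells, and Tfb2m (0.0069) in WT stimulation, and without mt- genes Slirp in CD4 cells (0.010), each with 2 calls for the difference between states in CD4 cells. In the stricter classes Lrpprc turned over all T cells (−0.040) and in CD8 cells (−0.013), and Polg (−0.044) and Twnk (−0.0090) in CD4 cells, with 3 and 1 calls in all T and CD8 SDHA-KO stimulation, 3 for the difference between states in CD8 cells, and 1 between classes. With 4 libraries only, SDHA-KO stimulation had 3 calls. Between high-mt- and low-mt- cells, cells of 5000 to 20000 UMIs turned Tfam (0.31), Tfb1m (0.022), Slirp (0.35), and Nrf1 (−0.37) in WT with 1 call, and left 4 in SDHA-KO. CD4 cells alone turned Lrpprc in SDHA-KO (−0.018) and left 4 calls in each genotype, and the upper against the lower 50% of cells turned Tfb2m in SDHA-KO (0.048).

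With each library left out in turn, Polg ranged from −0.12 to 0.13 and Gabpa from −0.091 to 0.053 over all T cells, Polg from −0.064 to 0.12, Twnk from −0.065 to 0.17, and Slirp from −0.10 to 0.11 in CD4 cells, and Gabpa from −0.049 to 0.30 in CD8 cells. In WT stimulation Tfb2m ranged from −0.065 to 0.12, Polrmt from −0.079 to 0.068, and Gabpa from −0.025 to 0.13, in SDHA-KO stimulation Tfb1m from −0.016 to 0.55, and in the difference between states Tfb2m from −0.16 to 0.030 and Polg from −0.18 to 0.073. Called members ranged from 2 to 5 in SDHA-KO stimulation over all T cells, 2 to 4 in its CD4 and in its CD8 cells, 3 to 6 in WT CD8 stimulation, 1 to 2 and 1 to 4 between stimulated genotypes in CD4 and CD8 cells, 1 to 2 and 0 to 2 for the difference between states in CD4 and CD8 cells, 0 to 1 between classes, 0 to 1 and 2 to 5 by subset before and after stimulation, 0 to 7 by family, and 4 to 7 between WT high-mt- and low-mt- cells. The replicate numbers did not pair the samples (correlations of deviations from −0.23 to 0.16), and with a replicate block 3 members were called in SDHA-KO stimulation, 1 in stimulated CD4 cells, and 3 by family.

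Counts over all genes moved most in unstimulated cells, where SDHA-KO against WT gave 267 calls over all T cells but 478 under DESeq2, 621 with equal cell weight, 674 with 4 libraries, 556 in the stricter classes, and 19 to 451 with a library left out. In CD4 cells 157 calls became 281, 308, 445, and, without the filter, 643, and in CD8 cells 124 became 264, 537, 338, and 225. For the difference between states, 4116, 3053, and 3111 calls became 2232, 1951, and 1397 among cells under 10% mt- UMIs, and the 3270 between classes became 1505 under DESeq2. Between WT high-mt- and low-mt- cells 7864 became 1706 among cells of 5000 to 20000 UMIs, and by subset 15002 became 8058 under DESeq2. By family 14726 became 9317 under DESeq2, 11461 with a replicate block, and 17450 with scaling by library totals.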
